A study of Mus musculus with 6 samples.

Results

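Krüppel-like factors (KLFs) are zinc finger transcription factors that bind CACCC and GC-rich elements in promoters. The 10 genes Klf2, Klf3, Klf4, Klf5, Klf6, Klf7, Klf10, Klf11, Klf13 and Klf15 were chosen by symbol from a deposited table of 17023 mouse genes, and all 10 had a row in it. RNA-seq had been done on primary airway smooth muscle cells, the contractile cells of the airway wall, taken from lungs of wild-type mice. In 3 libraries (co-culture 1 to 3) the cells had spent 5 days in transwell plates, which keep cell types apart on a porous membrane, together with mouse airway epithelial cells. In 3 control libraries (numbered 4 to 6 in the deposited table) they were grown without epithelial cells. The series was made to look for the cause of a smooth muscle proliferation phenotype. The sources do not say if a group's libraries stem from different cultures or mice, so the p-values reflect the spread among these libraries alone, and that spread may be technical.

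KLF proteins share a DNA-binding domain at the carboxyl end and differ in the rest of the protein, which recruits cofactors. Klf2, Klf4, Klf5, Klf6 and Klf7 are mostly activators that work with acetyltransferases, Klf3 represses through CtBP, and Klf10, Klf11 and Klf13 repress through Sin3. Klf15 is a glucocorticoid-induced regulator of metabolism. In vascular smooth muscle, Klf4 is known to repress contractile genes and Klf5 to favour proliferation, while Klf10 and Klf11 were named for their early induction by TGF-beta.

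Total estimated counts were 17496056 to 18496623 per library. Pairs of libraries were compared by their chi-square over genes, divided by its degrees of freedom (near 1 for counting noise). Pairs within co-culture gave 3.98 to 6.51 and the pair of control libraries 5 and 6 gave 3.18. Control library 4 stood apart, with 91.6 and 99.9 to the other controls, where pairs across the groups gave 45.6 to 121. Of 10 smooth muscle markers, Smtn, Acta2, Lmod1 and Tagln were the most abundant. The late contractile marker Myh11 was low, at 0.83 to 0.96 CPM (estimated counts scaled to library total and TMM factor) in co-culture and 0.68 to 1.54 CPM in controls, and Des was among the lowest. Summed over the list, smooth muscle markers were at 222 to 252 CPM in co-culture and 341 to 342 CPM in controls, and 3 of the 10 stayed under 1 CPM in every library. The 9 fibroblast markers summed to far more, 1484 to 1532 CPM in co-culture and 1379 to 1547 CPM in controls, so these markers do not set the cells apart from fibroblasts. Of 8 tested fibroblast markers 1 rose (Dpt, 0.98) and 4 fell (Inmt, -4.45; Col14a1, -2.92; Scara5, -1.13; Tcf21, -0.99). Pdgfra had the highest level, at 792 to 907 CPM in co-culture and 630 to 805 CPM in controls. The epithelial marker Epcam was at 0.21 to 0.28 CPM in co-culture and 0.12 to 0.72 CPM in controls, and Krt5, Krt14 and Cldn4 were at 0 in all co-culture libraries. Elf3 was at 0.10 to 0.28 CPM in co-culture libraries and at 0 in all control libraries. Foxj1 was at 0.16 to 0.22 CPM in co-culture libraries and at 0.05 to 0.06 CPM in control libraries. In such bulk samples, fewer cells of a type and less RNA per cell cannot be told apart.

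All 10 Klf genes passed the filter on low counts and were tested. In co-culture Klf5 and Klf2 rose, Klf10 and Klf13 fell, and the other 6 did not pass (quasi-likelihood test of edgeR, Benjamini-Hochberg adjustment over all genes, threshold 0.05). At an unadjusted p under 0.05, 8 of the 10 passed, where 34.8% of all genes tested did. Klf5 was about 2-fold higher (1.96-fold), Klf2 was 1.52-fold higher, and Klf10 was at 0.56 and Klf13 at 0.78 of the control level. The 4 calls are 40.0% of the genes, where 20.6% of all 12936 genes tested were called (10.3% higher and 10.3% lower). Their median log2 fold change was -0.13, against -0.04 over all genes. The median size of the change, sign aside, was 0.26 on the log2 scale for the Klf genes and 0.22 for all genes. Groups did not overlap in CPM for 8 of the 10 genes, against 42.9% of all genes. Without the TMM factors, on the FPKM scale, 5 of 10 did not overlap, against 40.5% of all genes.

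**Figure D1:**
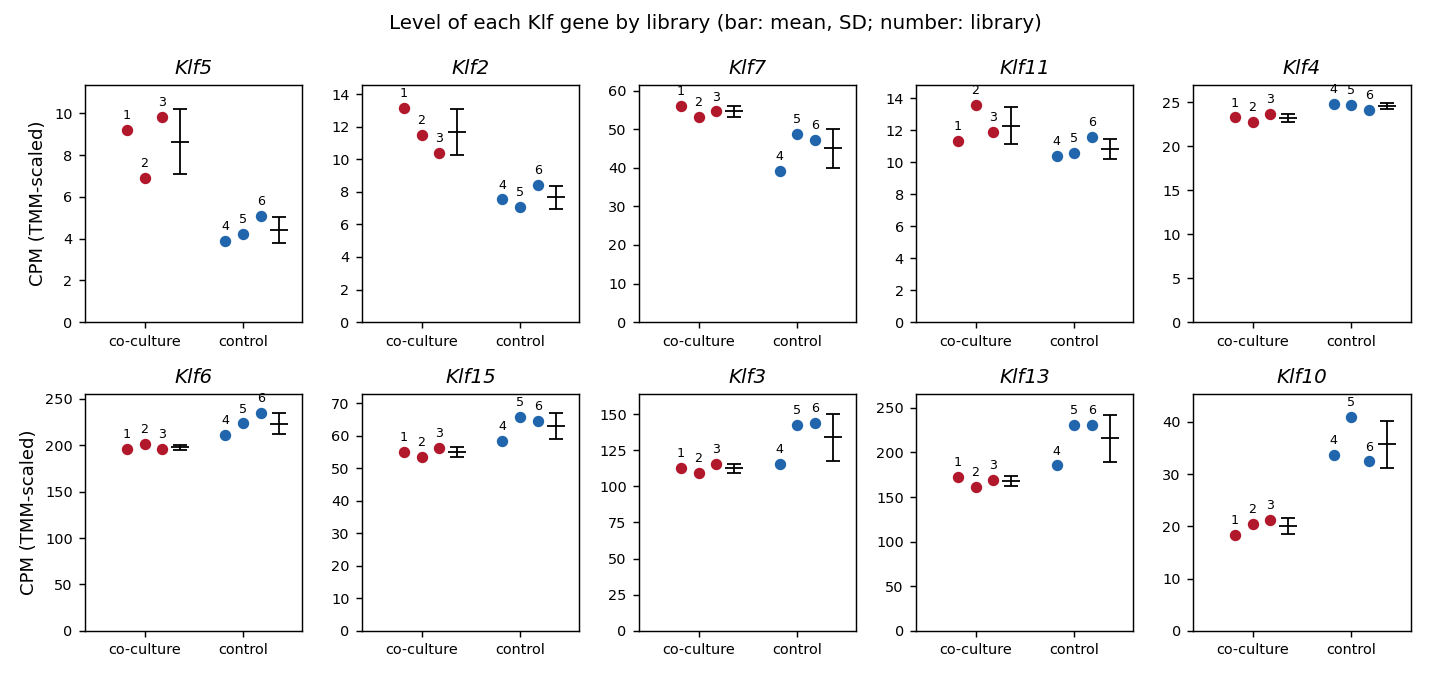
TMM-scaled CPM of each Klf gene (y axis, from 0) in co-culture libraries 1 to 3 (red) and control libraries 4 to 6 (blue), ordered by fold change; bars beside the points give mean and SD. On this TMM scale Klf5 and Klf2 lie higher in all co-culture libraries, Klf10 and Klf13 lie lower, and control library 4 is the lowest control for 7 of the 10 genes.

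Klf5 (gene ID 12224, chromosome 14, 99298691 to 99313412, GRCm38.p6), a growth-promoting activator also typical of epithelial progenitors, had the largest change of the 10. It was at 9.22, 6.89 and 9.84 CPM in co-culture libraries 1 to 3 and at 3.89, 4.24 and 5.11 CPM in control libraries 4 to 6. The lowest co-culture library lay above the highest control. The log2 fold change was 0.97 ± 0.18 (SE; edgeR adjusted p = 0.0115). Leaving out co-culture library 1 (edgeR adjusted p = 0.0506) or 3 (0.0513) ended the call, at changes of 0.92 and 0.87. Over the 11 tabulated airway epithelial markers, summed levels were 8.66 to 9.49 CPM in co-culture and 17.9 to 26.3 CPM in controls. Most of the sum in controls was Krt18, which fell by 2.19 on the log2 scale (edgeR adjusted p = 6.08e-04). Krt18 was at 4.17 to 4.91 CPM in co-culture and 15.8 to 24.1 CPM in controls. Trp63, a basal epithelial transcription factor, rose by 1.93 on the log2 scale (edgeR adjusted p = 0.0012). It was at 3.07 to 3.26 CPM in co-culture and 0.62 to 0.98 CPM in controls. The other 9 markers stayed under 1 CPM in every library, and the part of epithelial RNA in the Klf5 values was not tested.

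Klf2 (gene ID 16598, chromosome 8, 72319062 to 72321654), which restrains inflammatory and proliferative programmes in endothelial cells and lymphocytes, was the other gene that rose. It was at 13.2, 11.5 and 10.4 CPM in co-culture libraries 1 to 3 and at 7.54, 7.05 and 8.42 CPM in control libraries 4 to 6. The groups did not overlap, and the log2 fold change was 0.61 ± 0.13 (SE; edgeR adjusted p = 0.0188). Leaving out co-culture library 1 (edgeR adjusted p = 0.0669), co-culture library 2 (0.0643) or control library 5 (0.0632) ended the call, at changes of 0.51, 0.62 and 0.55, as did log2(TPM + 1) (0.72, limma adjusted p = 0.134). Summed levels of 9 endothelial markers, a cell type rich in Klf2, were 9.71 to 10.3 CPM in co-culture and 10.01 to 11.95 CPM in controls. Of 4 tested, Plvap fell by 1.15 on the log2 scale (edgeR adjusted p = 0.0146), averaging 0.68 CPM in co-culture libraries and 1.51 CPM in control libraries, and 3 did not pass. Of these 9 markers 5 stayed under 1 CPM in every library, among them Cdh5, Emcn (averaging 0.14 CPM in co-culture libraries and 0.57 CPM in control libraries) and Tie1, which was at 0 in all controls. Summed levels of 9 leukocyte markers, mostly Lyz2, were 48.7 to 54.8 CPM in co-culture and 65.7 to 119.6 CPM in controls. Lyz2 was at 103 CPM in control library 4 and at 49.7 and 56.0 CPM in control libraries 5 and 6. Of 7 tested, 0 rose and 1 fell, Csf1r, by 1.39 on the log2 scale (edgeR adjusted p = 0.00562). Csf1r averaged 1.23 CPM in co-culture libraries and 3.23 CPM in control libraries. Ptprc was under 1 CPM throughout and Cd79a was at 0 in all co-culture libraries. The part of either cell type in the Klf2 values was not tested.

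Klf4 (gene ID 16600, chromosome 4, 55527137 to 55532475), the close relative of Klf2 that represses contractile genes in vascular smooth muscle, did not pass. It was at 23.3, 22.7 and 23.6 CPM in co-culture libraries 1 to 3 and at 24.8, 24.7 and 24.2 CPM in control libraries 4 to 6. The groups were separate by less than 1 CPM, and the change was -0.08 ± 0.07 (SE; edgeR adjusted p = 0.443). Its sign turned to 0.03 with library totals in place of TMM factors (edgeR adjusted p = 0.878), so no direction can be given.

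Promoters of Klf2, which rose, Klf4, which did not pass, and Klf13, which fell, are shown because MEF2 factors are known to act on the Klf2 promoter and KLFs bind CACCC. The windows run from 250 bases before to 50 bases after the start site (RefSeq, GRCm38.p6, 5′ to 3′ on the gene's strand): chr8:72318812-72319111, plus strand, for Klf2, chr4:55532426-55532725, minus strand, for Klf4, and chr7:63938866-63939165, minus strand, for Klf13. Capitals mark a MEF2 site and CACCC, which reads GGGTG on the other strand.
Klf2: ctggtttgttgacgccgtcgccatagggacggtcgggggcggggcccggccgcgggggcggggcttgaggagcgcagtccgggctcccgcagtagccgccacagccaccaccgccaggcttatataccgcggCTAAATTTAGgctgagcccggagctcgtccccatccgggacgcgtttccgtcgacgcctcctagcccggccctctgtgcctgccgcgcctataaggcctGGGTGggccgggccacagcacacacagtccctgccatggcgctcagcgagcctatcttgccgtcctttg
Klf4: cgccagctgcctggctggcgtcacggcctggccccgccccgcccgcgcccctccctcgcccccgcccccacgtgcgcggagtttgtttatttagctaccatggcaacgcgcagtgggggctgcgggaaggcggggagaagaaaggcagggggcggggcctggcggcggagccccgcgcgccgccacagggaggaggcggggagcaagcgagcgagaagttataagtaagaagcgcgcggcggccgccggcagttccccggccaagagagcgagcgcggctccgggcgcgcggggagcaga
Klf13: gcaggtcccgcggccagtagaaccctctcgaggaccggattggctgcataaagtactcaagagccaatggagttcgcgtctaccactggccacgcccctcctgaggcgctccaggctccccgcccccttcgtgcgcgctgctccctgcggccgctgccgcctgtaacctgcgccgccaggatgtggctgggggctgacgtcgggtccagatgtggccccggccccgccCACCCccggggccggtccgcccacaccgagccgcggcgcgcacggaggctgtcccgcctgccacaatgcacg

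The promoter table held 8 of the 10 genes, and Klf5 and Klf10 were not among them. A MEF2 site was found in 1 of the 8 windows, that of Klf2, beginning 118 bases before the start site (position -118), and in 3.26% of 27025 promoters of the same length. CACCC, searched on both strands, was found once each in the Klf2, Klf13 and Klf15 windows, 3 times in Klf7 and 5 times in Klf3. It was absent from the windows of Klf4, Klf6 and Klf11, and present in 56.7% of all promoters. The GC-rich element GGGCGG, searched on both strands, was found in all 8 windows, 1 to 6 times each, and in 35.9% of all promoters. The CArG box bound by Srf and the cyclic AMP element TGACGTCA had 0 matches in the 8 windows, against 1.57% and 1.88% of all promoters. These matches describe letters only, and GC content was 58.3% to 77.7% in the 8 windows, against a median of 52.7% over all promoters. The windows of Klf7 (64121340 to 64121639) and Klf15 (90462326 to 90462625) lie inside the gene coordinates given below, not at their outer end. Which start sites were in use in these cells was not tested.

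Klf6 and Klf7 did not pass with all libraries. Klf6 (gene ID 23849, chromosome 13, 5861489 to 5870393), an injury-induced activator and the most abundant of the 10 genes per length, was at 196, 201 and 196 CPM in co-culture libraries 1 to 3. It was at 211, 224 and 235 CPM in control libraries 4 to 6, a change of -0.17 ± 0.06 (SE; edgeR adjusted p = 0.108). In CPM the co-culture libraries all lay below the controls, by a margin smaller than the spread among the controls. In FPKM, without TMM factors, control library 4 (47.5) lay below the co-culture libraries (51.6 to 52.9). Klf7 (gene ID 93691, chromosome 1, 64029448 to 64122345), known for roles in neurons and fat cells, was at 56.1, 53.1 and 54.6 CPM in co-culture and 39.3, 48.7 and 47.3 CPM in controls. Its change was 0.28 ± 0.09 (SE; edgeR adjusted p = 0.0836). Both were called without control library 4, Klf6 at -0.21 (edgeR adjusted p = 0.00566) and Klf7 at 0.19 (0.0284). For Klf6, log2(TPM + 1) turned the sign to 0.02.

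Among the Sin3-recruiting repressors, Klf10 (gene ID 21847, chromosome 15, 38291464 to 38300711) kept its call under more alternatives than Klf5, Klf2 or Klf13. It was at 18.4, 20.5 and 21.3 CPM in co-culture libraries 1 to 3 and at 33.7, 40.9 and 32.4 CPM in control libraries 4 to 6. The highest co-culture library lay well below the lowest control. The log2 fold change was -0.83 ± 0.11 (SE; edgeR adjusted p = 0.00422), and with any single library left out it ran from -0.87 to -0.72 (edgeR adjusted p from 3.34e-05 to 0.0241). Of the 16 alternatives, only log2(TPM + 1) lost the call (-0.60, limma adjusted p = 0.259).

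Klf11 (gene ID 194655, chromosome 12, 24651371 to 24662782), the near relative of Klf10, did not pass. It was at 11.4, 13.6 and 11.9 CPM in co-culture and 10.4, 10.6 and 11.6 CPM in controls. The groups overlapped, and the change of 0.18 ± 0.11 did not pass (SE; edgeR adjusted p = 0.275) in any of the 16 alternatives (adjusted p from 0.182 to 0.601). The difference between the changes of Klf10 and Klf11 was not itself tested.

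Klf13 (gene ID 50794, chromosome 7, 63886351 to 63938915), known from lymphocytes and the heart, fell less. It was at 173, 162 and 169 CPM in co-culture libraries 1 to 3 and at 186, 231 and 231 CPM in control libraries 4 to 6. The groups did not overlap in TMM-scaled CPM, but control library 4 lay nearer to the co-culture libraries than to the other controls. In FPKM, without TMM factors, control library 4 (26.8) lay below the co-culture libraries (27.4 to 29.3), so the groups overlapped. The change was -0.36 ± 0.10 (SE; edgeR adjusted p = 0.0447). It was -0.46 without control library 4 (edgeR adjusted p = 2.16e-05), and the call was lost without any other library (edgeR adjusted p from 0.119 to 0.163) and with DESeq2 (adjusted p = 0.0634) or its size factors in edgeR (0.0609). With library totals (-0.27, edgeR adjusted p = 0.244), log2(FPKM + 1) (-0.24, limma adjusted p = 0.285) and log2(TPM + 1) (-0.16, limma adjusted p = 0.815) it was lost at smaller changes, and in all 11 of 16 alternatives lost it.

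Klf3 and Klf15 did not pass. Klf3 (gene ID 16599, chromosome 5, 64803521 to 64832901), a CtBP-dependent repressor, was at 113, 109 and 116 CPM in co-culture libraries 1 to 3 and at 115, 143 and 144 CPM in control libraries 4 to 6. Control library 4 lay within the co-culture range. The change of -0.25 ± 0.10 (SE; edgeR adjusted p = 0.114) became -0.35 without control library 4 (edgeR adjusted p = 1.73e-04). Klf15 (gene ID 66277, chromosome 6, 90461043 to 90491803) was at 55.0, 53.6 and 56.4 CPM in co-culture and 58.4, 65.8 and 64.5 CPM in controls. Its groups did not overlap in CPM, but in FPKM control library 4 (23.3) lay below the co-culture libraries (25.0 to 26.3). The change was -0.19 ± 0.07 (SE; edgeR adjusted p = 0.0945), or -0.25 without control library 4 (edgeR adjusted p = 0.00472). Without control library 4, 8 of the 10 genes were called (3 higher and 5 lower), and 38.6% of all genes were.

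**Figure D2:**
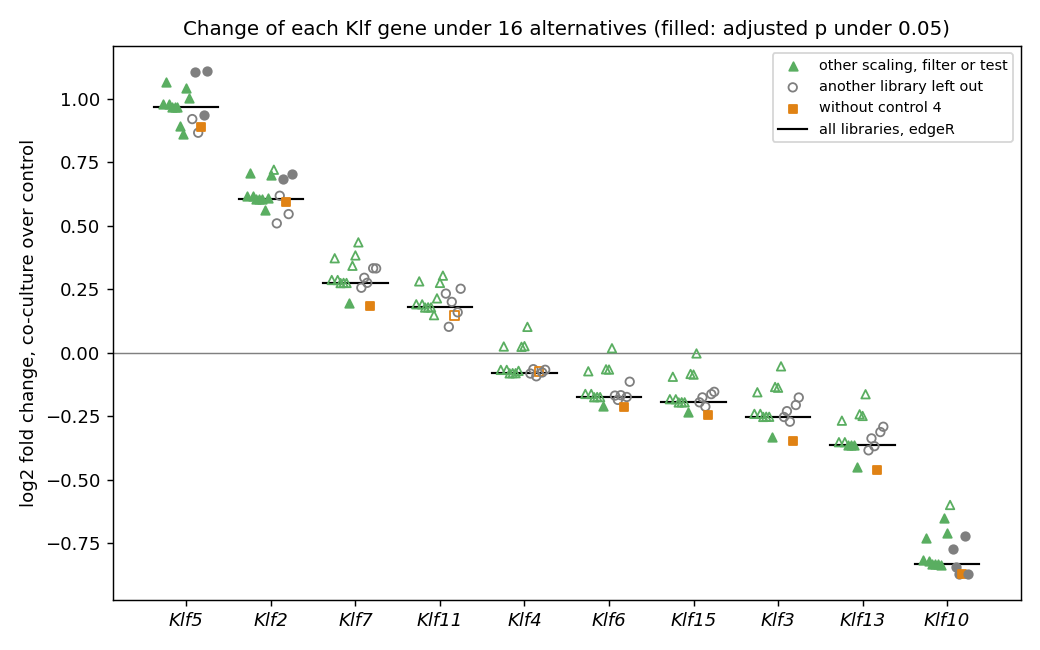
log2 fold change (co-culture over control, y axis) of the 10 Klf genes with all libraries (black lines) and under 16 alternatives (points, filled where adjusted p was under 0.05). Klf5, Klf2, Klf7 and Klf11 stay above 0 and Klf10, Klf13, Klf3 and Klf15 below it throughout. Points without control library 4 (orange) are filled for all genes except Klf11 and Klf4.

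Levels of different genes were compared per length, as FPKM (counts scaled to gene length and library total). In co-culture the order was Klf6 (52.1 ± 0.70 FPKM, SD, n = 3), Klf3 (35.7 ± 1.06), Klf13 (28.5 ± 0.97), Klf15 (25.7 ± 0.67), Klf7 (9.02 ± 0.25), Klf4 (8.70 ± 0.18), Klf2 (7.87 ± 0.96), Klf10 (7.48 ± 0.54), Klf5 (6.19 ± 1.11) and Klf11 (3.44 ± 0.32). Libraries of neighbours overlapped in 4 of 9 pairs, those from Klf7 down to Klf5. In controls the first 4 places were the same, and Klf10 (12.4 ± 2.16 FPKM) came next, ahead of Klf4 (8.55 ± 0.56), Klf7 (6.97 ± 1.25), Klf2 (4.81 ± 0.59), Klf5 (2.95 ± 0.57) and Klf11 (2.83 ± 0.33). There, 3 of 9 pairs of neighbours overlapped, Klf3 with Klf13, Klf13 with Klf15, and Klf5 with Klf11, but on the TPM scale 8 of 9 did.

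The 10 genes made up 70.8% to 72.3% of the summed FPKM of the 17 tabulated Klf genes in co-culture libraries and 65.0% to 65.3% in control libraries. Their own summed FPKM was 181.3 to 186.5 in co-culture libraries and 162.3, 211.5 and 210.4 in control libraries 4 to 6, so the groups overlapped. As the shares are parts of the same sum, a smaller share of Klf9 raises the others. The largest single share was that of Klf9, which is outside the 10, with 24.0% to 25.6% in co-culture and 31.8% to 32.1% in controls. Klf5 took 1.93% to 2.69% in co-culture and 0.91% to 1.09% in controls, and Klf2 took 2.67% to 3.45% and 1.42% to 1.74%. Klf10 took 2.67% to 3.03% in co-culture and 3.62% to 4.56% in controls. Such shares do not depend on a scaling between libraries. Control library 4 lay close to the other controls for Klf9 and for the 10 genes together, but these shares are linked as parts of the same sum. For some single genes it lay apart. Klf3 took 12.52% in control library 4 against 13.55% and 13.66% in control libraries 5 and 6. Klf13 took 10.75% against 11.74% and 11.7%, with 10.71% to 11.38% in co-culture. The shares were not tested.

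**Figure D3:**
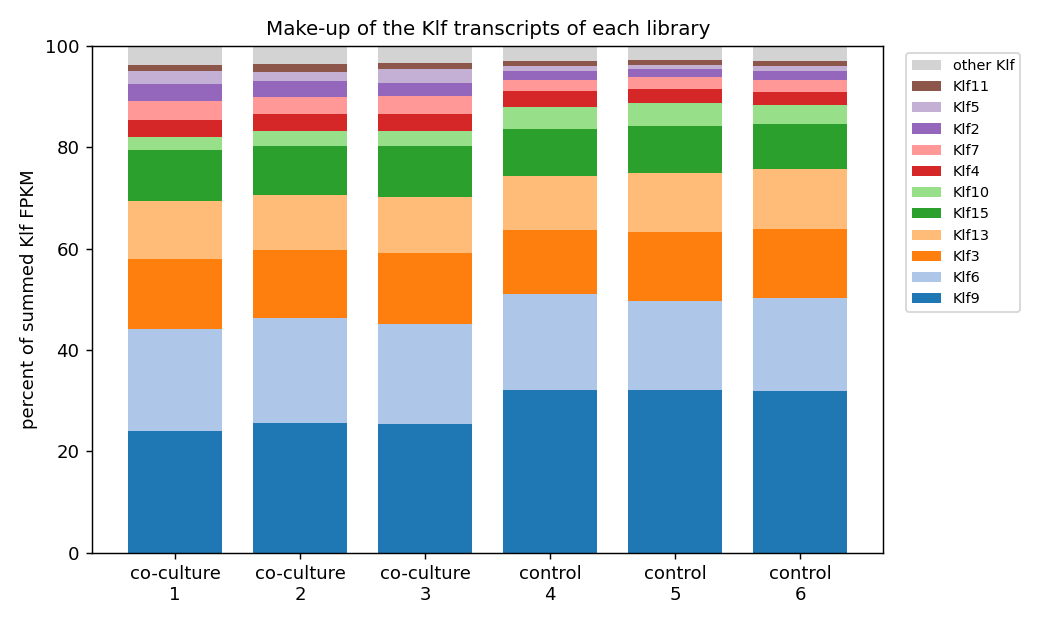
Share of each Klf gene in the summed FPKM of the 17 tabulated Klf genes (y axis, percent) in co-culture libraries 1 to 3 and control libraries 4 to 6; grey holds the Klf genes outside the 10 other than Klf9. The Klf9 segment is smaller in co-culture (24.0% to 25.6%) than in controls (31.8% to 32.1%), and the Klf2 and Klf5 segments are larger.

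A deposited table of 58236 transcripts held 20 that belong to these genes. Of them 16 were tested and 1 was called, NM_013692 of Klf10 (-0.85 ± 0.12, edgeR adjusted p = 0.0362), where 1.91% of all transcripts tested were called. Its call was lost without any library other than control library 4. It carried 89.1% to 95.3% of the Klf10 counts in co-culture and 92.02% to 96.8% in controls. Klf3, Klf7, Klf10 and Klf15 had more than 1 transcript, and 0 of these 4 had changed transcript use (edgeR's diffSpliceDGE, 0 also at an unadjusted p under 0.05, lowest 0.881), against 0.443% of all genes tested for it. The main Klf7 transcript, XM_030243769, carried 76.6% to 89.6% of the Klf7 counts in co-culture and 80.7% to 87.2% in controls. Estimated counts split reads among overlapping transcripts, and the Klf7 transcript XM_006496351 took 13.97% of the gene in control library 4 and 0.04% in control library 5.

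Among Klf genes outside the 10, Klf9, a Sin3-recruiting factor induced by glucocorticoids and thyroid hormone, fell. It was at 250, 266 and 269 CPM in co-culture libraries 1 to 3 and 380, 434 and 431 CPM in control libraries 4 to 6, a change of -0.67 ± 0.08 (SE; edgeR adjusted p = 0.00249). Klf8, a CtBP-binding relative of Klf3 linked to cell cycle progression, rose. It was at 6.30, 6.34 and 5.03 CPM in co-culture and 2.90, 3.03 and 2.82 CPM in controls, a change of 1.01 ± 0.14 (SE; edgeR adjusted p = 0.00407). Both calls held with any single library left out. Klf12 (-0.03) and Klf16 (-0.19) did not pass, and Klf1, Klf14 and Klf17 were too low to test (at most 6 counts in a library). Klf18 had no row under that symbol among the 17023 genes.

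The Sp factors, which share the KLF type of DNA-binding domain, were tested beside them. Of 5 tested, 3 rose and 0 fell, where 20.6% of all genes were called (10.3% higher and 10.3% lower). Sp4 was at 21.1, 21.6 and 20.7 CPM in co-culture and 15.9, 15.6 and 15.5 CPM in controls (0.43 ± 0.07, edgeR adjusted p = 0.00862). Sp3 rose by 0.30 ± 0.06 (edgeR adjusted p = 0.018) and Sp6 by 1.18 ± 0.23 (0.0155), but neither passed with co-culture library 1, co-culture library 3 or control library 5 left out (edgeR adjusted p from 0.0546 to 0.0877), and Sp3 also without control library 6 (0.0505). Sp1 (0.004) and Sp2 (-0.02) did not pass. Sp5, a Wnt target in development, did not pass the filter on low counts, with 11, 7 and 9 counts in co-culture libraries and 1, 1 and 0 in controls. With no filter it was called higher (edgeR adjusted p = 0.0126). Sp7 and Sp9 were also below the filter, and Sp8 had no row under that symbol among the 17023 genes.

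**Figure D4:**
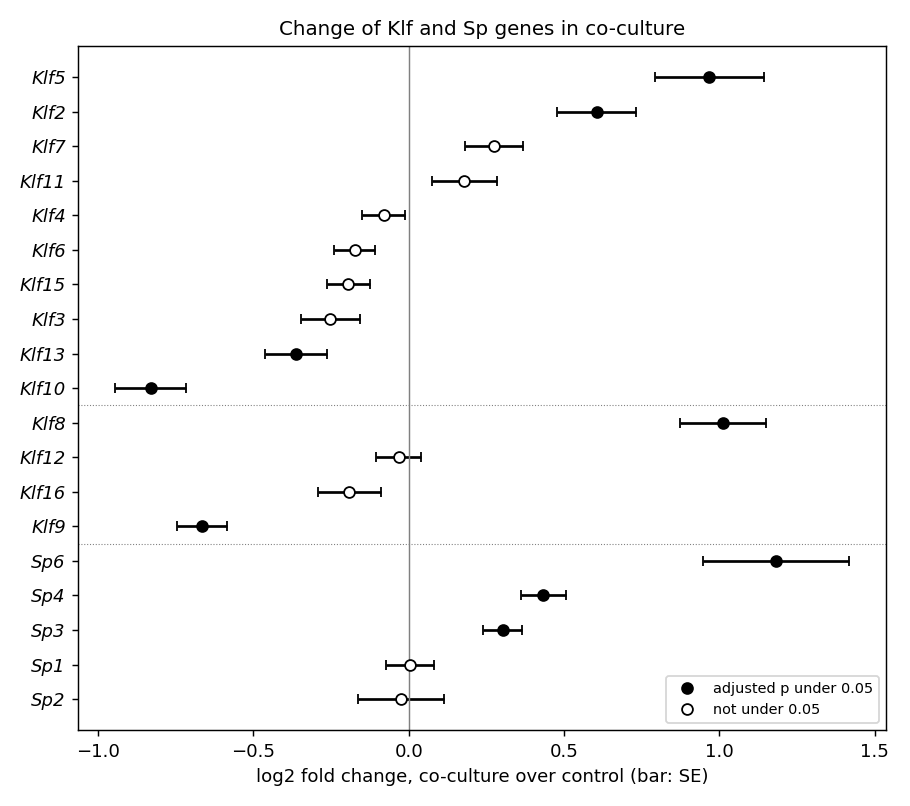
log2 fold change (x axis, co-culture over control, bars give SE) of the tested genes among the 10 Klf genes (top), the other Klf genes (middle) and the Sp genes (bottom); filled points passed at an adjusted p under 0.05. Changes run from -0.83 for Klf10 to 1.18 for Sp6, and Klf9 fell while Klf8 rose.

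Partners that bring KLFs to chromatin or degrade them were read against the 20.6% called over all genes. Of 14 cofactors 1 rose, the SUMO ligase Pias1 (0.29 ± 0.08, edgeR adjusted p = 0.0414). Its call was lost without any co-culture library or control library 5 (edgeR adjusted p from 0.101 to 0.147). Pias1 also did not pass with no filter (edgeR adjusted p = 0.0536) or with DESeq2 (adjusted p = 0.0794), where 0 cofactors were called. The list median was -0.02. Of 5 ubiquitin ligases 0 passed in edgeR (2 at an unadjusted p under 0.05, and 0 with DESeq2), with a median of -0.12, and the most abundant, Stub1, had a log2 fold change of -0.05 (edgeR adjusted p = 0.562). Without control library 4, 2 cofactors rose, 2 cofactors fell and 2 ligases fell. In that setting 38.6% of all genes were called. With any other single library left out, 612 to 903 of all genes were called higher and 598 to 774 lower. With all libraries these numbers were 1333 and 1330. These backgrounds apply to the lists below as well.

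The Mek5-Erk5-Mef2 route is the main known inducer of Klf2 and Klf4 in endothelium. Of its 13 genes 0 rose and 1 fell, with a median of -0.14, where 20.6% of all genes were called. The transcription factor Mef2d fell by 0.45 ± 0.11 (edgeR adjusted p = 0.0305), and was at 61.8, 69.8 and 65.0 CPM in co-culture against 75.9, 94.9 and 97.4 CPM in controls. This call was lost without any library other than control library 4 (edgeR adjusted p from 0.0717 to 0.116). Without control library 4, where 38.6% of all genes were called, 1 gene rose and 5 fell.

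Of 15 genes of TGF-beta signalling, the inducer of Klf10 and Klf11, 1 rose and 6 fell, with a median of -0.08. Over all genes tested, 20.6% were called. The matricellular target Ccn2 fell by 1.84 ± 0.10 (edgeR adjusted p = 1.45e-04). The feedback regulator Skil was at 26.2, 22.1 and 25.2 CPM in co-culture and 62.5, 58.0 and 64.7 CPM in controls (-1.33 ± 0.09, edgeR adjusted p = 2.77e-04). Smad7, another feedback inhibitor, did not pass, at -0.01 (edgeR adjusted p = 0.975). With a library other than control library 4 left out, 0 rose and 3 or 4 fell. Without control library 4, where 38.6% of all genes were called, 1 rose and 9 fell.

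In the Srf and myocardin axis, on which Klf4 acts in vascular smooth muscle, 2 of 13 tested genes rose and 3 fell (median -0.17). Over all genes tested, 20.6% were called. The smooth muscle genes Acta2 and Tagln fell by 1.17 ± 0.19 (edgeR adjusted p = 0.00788) and 1.48 ± 0.25 (0.009). The coactivator Myocd rose at very low levels, with 16, 14 and 15 counts in co-culture and 2 in each control (2.75 ± 0.32, edgeR adjusted p = 0.002). With a library other than control library 4 left out, 1 or 2 rose and 2 fell. Without control library 4, where 38.6% of all genes were called, 2 rose and 7 fell. Summed smooth muscle markers, which these genes are part of, were lower in co-culture, as given above.

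Glucocorticoids induce Klf9 and Klf15. Of 14 response genes 2 rose and 3 fell (median 0.06), where 20.6% of all genes were called. The receptor gene Nr3c1 rose by 0.31 ± 0.06 (edgeR adjusted p = 0.0108), which did not pass with co-culture library 1 (0.0556) or 3 (0.0609) left out. The phosphatase gene Dusp1 fell by 0.71 ± 0.09 (edgeR adjusted p = 0.00276) and the ErbB inhibitor gene Errfi1 fell by 0.44 ± 0.06 (0.00503). With 1 library left out, 0 to 4 rose and 2 to 4 fell, the most without control library 4 and 0 risen without co-culture library 1 or 3. Of 11 tested genes of amino acid and fuel metabolism tied to Klf15, 3 rose and 0 fell (median 0.13), against 20.6% of all genes. The proline dehydrogenase gene Prodh was at 13.2, 13.1 and 13.2 CPM in co-culture and 6.73, 6.94 and 9.12 CPM in controls (0.79 ± 0.13, edgeR adjusted p = 0.00879). Aldh6a1 (0.32 ± 0.07) and Acss2 (0.32 ± 0.08) rose less (edgeR adjusted p = 0.0223 and 0.0372). Aldh6a1 did not pass with co-culture library 1, co-culture library 3 or control library 5 left out (up to 0.0995). Nor did Acss2 with any library other than control library 4 left out (up to 0.137) or with DESeq2 (adjusted p = 0.0663). With 1 library left out, 1 to 4 of the list rose and 0 fell.

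Of 6 tested vascular genes reported as Klf2 or Klf4 targets, 2 rose and 0 fell (median 0.03), against 20.6% of all genes called. The sphingosine phosphate receptor gene S1pr1, known as a Klf2 target in T cells, was at 15.2, 15.995 and 14.5 CPM in co-culture and 4.94, 4.73 and 5.21 CPM in controls (1.62 ± 0.10, edgeR adjusted p = 1.93e-04). Tmem100 rose by 2.28 ± 0.33 (edgeR adjusted p = 0.00514). The thrombomodulin gene Thbd, another reported target, did not pass (-0.19, edgeR adjusted p = 0.188). With any library left out both rises stayed, and 1 gene fell without control library 4.

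Of 14 growth-related genes reported as KLF targets, 3 rose and 2 fell (median -0.08), where 20.6% of all genes were called. The cell cycle inhibitor gene Cdkn2b rose by 1.54 ± 0.11 (edgeR adjusted p = 3.69e-04) and Myc by 0.63 ± 0.07 (0.00155). The growth factor gene Pdgfa, a Klf5 target in vascular smooth muscle, rose by 0.47 ± 0.11 (edgeR adjusted p = 0.0268), a call lost without any library other than control library 4 (edgeR adjusted p from 0.0522 to 0.0964). Cdkn1a, activated by Klf4 and Klf6, did not pass (-0.22, edgeR adjusted p = 0.0808). With a library other than control library 4 left out, 2 rose and 0 fell. Without control library 4, where 38.6% of all genes were called, 4 rose and 6 fell. Of 19 immediate early genes, a class that Klf2, Klf4, Klf6 and Klf10 often belong to, 3 rose and 6 fell (median 0.02). The share called over all genes is again 20.6%. Fosl2 rose by 1.34 ± 0.10 (edgeR adjusted p = 4.93e-04) and Ier3 by 1.27 ± 0.12 (9.64e-04), and Egr2 fell by 2.06 ± 0.21 (0.00125). Egr2 was low, with 12, 10 and 10 counts in co-culture and 36, 51 and 40 in controls.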

How the data were processed

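RNA-seq libraries of 3 co-cultured and 3 control samples were grouped by their titles. Per the labels' protocols, reads were aligned with HISAT, and the submitters' processing notes name the build mm10. For the counting program, annotation, strand setting and versions, the sources used here give nothing. The deposited estimated counts need not be whole and were rounded before testing. The deposited FPKM are named so by the authors in the file headers. Control columns are numbered 4 to 6 and the labels 1 to 3, so these columns were assigned to their group. The counts were taken for controls, and 21 deposited columns of FPKM and TPM were not used. FPKM and TPM were computed from counts and the lengths implied by the co-culture FPKM (median difference from the same co-culture FPKM 0.0051 on the log2 scale). As the lengths come from those FPKM, this small difference was built in and does not check the control values.

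Genes kept by filterByExpr were tested with edgeR 4.0.16 (R 4.3.3), with TMM factors of 0.8855 for control library 4 and 1.0005 to 1.0388 for the others, no covariate, two-sided quasi-likelihood tests and Benjamini-Hochberg adjustment over all genes. SE is the absolute log2 fold change over the square root of F. Transcripts were tested likewise. Alternatives were other scalings, filters, DESeq2 1.42.0, limma 3.58.1 and leaving out each library. Gene IDs (99.7% matched) and promoters come from RefSeq (GRCm38.p6, the assembly that mm10 denotes). The 10 genes and the lists were chosen with earlier results of these data known. All Klf and Sp genes are named, and from each other list the 3 called genes with the smallest adjusted p, or the most abundant gene where 0 were called. A gene of the TGF-beta list that this rule names is not reported here. Smad7, Thbd, Cdkn1a and marker genes were named after their values were seen.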

Additional observations from a re-analysis of the deposited data

How the results depend on the processing

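No paired analysis was possible because the control columns carry numbers 4 to 6, which the co-culture columns do not share. With a single library left out, 0 to 3 of the 10 Klf genes were called higher, against 2 with all libraries, and 1 to 5 were called lower, against 2. Of all genes, 612 to 2445 against 1333 were called higher and 598 to 2598 against 1330 lower, the most without control library 4. Klf transcripts called numbered 0 to 2 against 1. Under other scalings and tests, 1 Klf gene was called lower with DESeq2's size factors, DESeq2, library totals, log2(FPKM + 1) or log2(FPKM + 0.1), 5 with limma's quality weights and 0 with log2(TPM + 1), where 1, Klf5, was called higher. Over all genes, log2(TPM + 1) gave 510 higher and 238 lower, quality weights 2201 and 2488, library totals 1444 and 676, log2(FPKM + 1) 1489 and 656, and log2(FPKM + 0.1) 1457 and 663. The Klf4 change turned to 0.025 with library totals, 0.024 with log2(FPKM + 1), 0.027 with log2(FPKM + 0.1) and 0.10 with log2(TPM + 1), and that of Klf6 to 0.018 with log2(TPM + 1). On that last scale the median of all genes was 0.14, and 0.064 with library totals, against -0.041. The robust fit and the filter of at least 10 counts in 3 libraries changed 0 of the Klf calls. The 4 of 9 overlapping neighbours in co-culture became 5 with TPM, and the 3 of 9 in controls became 8. With the deposited co-culture FPKM they stayed 4, but the lengths had been taken from those FPKM. The cause of these shifts was not tested. Klf5, Klf2 and Klf11, at 3.9 to 13.6 CPM, rest on the fewest counts.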
